A study of Mus musculus with 5 samples.

Results

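Cycling leukocytes of the mouse kidney were taken as cell barcodes that carried transcripts of both a proliferation gene and the pan-leukocyte gene Ptprc (CD45). Members were chosen by measured values. A barcode was a member if it held at least 1000 unique molecular identifiers (UMIs, the counted molecules of 10x Genomics 3′ sequencing), at least 200 genes and at most 25% of UMIs on mitochondrial genes. It also needed at least 2 UMIs of Mki67 and Top2a together and at least 1 of Ptprc, with no Lrp2 and at most 3 UMIs of Slc34a1, both of which mark the proximal tubule. Of 53809 barcodes past the depth, gene and mitochondrial limits, 2957 passed the leukocyte part of this gate and 109 of them were members. That is 3.69% of the gated leukocytes (95% interval 3.04 to 4.43%). The share depends on the gate and was 6.19% with Ptprc of at least 3 and 6.33% among cells with at least 2000 UMIs. All intervals here are exact and cover counting error only.

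The cells came from the kidneys of male C57BL/6J mice aged 6 to 8 weeks. The left renal pedicle had been clamped and released, a unilateral ischemia-reperfusion (UIR) injury that spares the other kidney, and tissue was taken on days 1, 3, 14 and 28, with Sham surgery as the control. Each of the 5 conditions was 1 sample in the labels, with no transgene or added agent. The paper describes kidney samples from 3 mice, and a merge of more matrices than the 5 libraries found here. The number of mice behind each library is therefore not certain. The merged count matrix held 5 libraries, numbered 1 to 5 at the end of each barcode, and no label tied a number to a condition. The libraries are therefore given by number, nothing is said by time point, and no test between conditions or libraries was made. Their totals ran from 82426945 to 139382799 UMIs over all barcodes. The GEO labels call the cells goblet cells, which are mucus-secreting epithelial cells. The members instead carried leukocyte genes that took no part in the gate. At least 3 of Laptm5, Cd53, Coro1a, Cd52 and Arhgdib were detected in 95.4% of members and in 0.471% of 19513 Lrp2-rich tubule cells. The tubule cells, chosen by at least 5 UMIs of Lrp2 and no Ptprc, were deeper (median 8005 against 6808 UMIs). Members had to hold Ptprc and the tubule cells to lack it, so part of this gap was set by the choice of cells.

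The cell cycle is run by cyclin-dependent kinases that cyclins switch on in turn. In S phase the cell copies its DNA, which takes replication helicases, nucleotide-making enzymes and new histones. In G2 and mitosis it builds a spindle, with kinases and motor proteins that are made and destroyed in each round. Ki-67 (Mki67) and topoisomerase IIα (Top2a) are made from S phase to mitosis and are lost from resting cells. In kidney, resident macrophages can renew by division, activated T cells divide in the tissue, and neutrophils are terminally differentiated.

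The 109 members held 449 UMIs of Mki67 and 527 of Top2a. Both genes were seen in 78 cells, Mki67 alone in 13 and Top2a alone in 18. The sum was exactly 2 in 24 cells and 10 or more in 43. Just outside the gate, 134 leukocytes held 1 UMI, and the remaining 2714, with none, are called non-cycling below. The members were deeper than these non-cycling cells, with medians of 6808 and 2025 UMIs and of 2124 and 918 genes. A deeper cell is more likely to reach 2 UMIs, so the main shares of cycling cells and the S and G2/M counts per cell are given also after every cell was thinned at random to 1000 UMIs.

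Cells at the edge of the gate differed from those well inside it. Birc5, the mitotic protein survivin, was not used by the gate. It was detected in 5 of the 24 cells with exactly 2 UMIs (20.8%), in 31 of 42 with 3 to 9 (73.8%) and in 41 of 43 with 10 or more (95.3%). It was seen in 5.97% of the cells with 1 UMI and 0.884% of the non-cycling cells. These Birc5 shares were not thinned, and depth rose along with them. Median depths were 3780 UMIs at a sum of 1, 4336.5 at 2, 6704.5 at 3 to 9 and 9774 at 10 or more. The part of depth in these shares was not tested. After thinning, the G2/M genes listed below had a median of 1 UMI per cell at exactly 2 UMIs and in non-cycling cells, against 8.5 and 9 in the inner groups. The means at exactly 2 UMIs and in non-cycling cells were 4.88 and 1.32. Among all members, 77.1% held at least 1 of Birc5, Cdk1, Ccna2, Ccnb1 and Nusap1, against 2.95% of non-cycling leukocytes and 87.1% of cycling tubule cells.

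Library 2 gave 46 members, library 1 gave 29, library 4 gave 23, library 3 gave 7 and library 5 gave 4. As a share of gated leukocytes this was 4.21% (2.84 to 5.99%) in library 1 and 4.40% (3.24 to 5.83%) in library 2. It was 0.794% (0.320 to 1.63%) in library 3, 8.13% (5.22 to 11.9%) in library 4 and 6.90% (1.91 to 16.7%) in library 5. Library 4 was highest and library 3 lowest, and their intervals did not overlap. With a thinned cell counted as cycling at 1 UMI of Mki67 or Top2a, library 3 was at 2.15% (1.30 to 3.34%) and library 4 at 8.13%. Among passing cells, 300 barcode sequences occurred in more than 1 library, and none of them belonged to a member.

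Members were sorted into classes by UMIs of 5 marker genes. Cd3e, a chain of the T cell receptor complex, needed 1 UMI, Cd79a of the B cell receptor 2, and the complement gene C1qa of tissue macrophages 3. S100a8 of neutrophils needed 10 and Lyz2, the myeloid lysozyme, 5 without C1qa. C1qa+ macrophage-type cells were the most frequent class with 41 cells (37.6%), followed by Cd3e+ T cells with 35 (32.1%). The rule misses T cells in which no Cd3e was read. Among members without a class marker, 8 carried T or NK genes, most of them with Cd3d and Cd3g. The order of the 2 classes is therefore not an order of cell types. The C1qa+ share was lower without cells with 2 or more UMIs of other cell types, Spp1 counted among them. The Cd3e+ share was lower with doubled class thresholds, and both values are in the closing section. No class marker was reached in 27 members (24.8%), 4 were Lyz2+C1qa-, 1 was Cd79a+ and 1 carried both Cd3e and Cd79a. No member was S100a8+, a class that left out cells with C1qa at its threshold. The 1 member that reached 10 UMIs of S100a8 was counted as C1qa+ for that reason. The rule itself kept lymphoid and myeloid markers apart. A C1qa+ cell could hold no Cd3e and had to be under 2 UMIs of Cd79a. A Cd3e+ cell had to be under the thresholds of the other genes. The counts that follow describe the classes and do not support them. C1qa+ members held a median of 40 UMIs of C1qa (3 to 196) and 73 of Lyz2, with no UMI of Cd3e or Cd79a in any of the 41. The Cd3e+ members held a median of 2 UMIs of Cd3e (1 to 6), and none held a UMI of C1qa, Cd79a or S100a8. In Lrp2-rich cells, which should lack these genes, the thresholds were passed by 0.174% for C1qa, 0.133% for Cd3e, 0.0871% for Cd79a, 0.159% for S100a8 and 0.297% for Lyz2. These cells held no Ptprc by rule, so droplets in which Ptprc was read are not in this background.

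**Figure D1:**
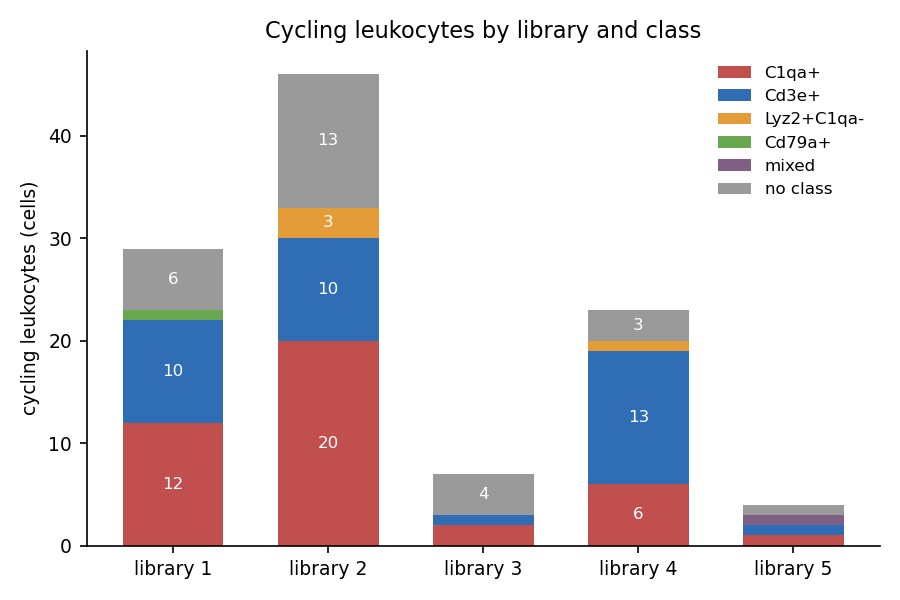
Stacked bars give the number of cycling leukocytes in each of the 5 libraries, coloured by marker class, with counts of 3 or more printed. C1qa+ cells lead in libraries 1 and 2 (12 and 20 cells) and Cd3e+ cells in library 4 (13 cells), and libraries 3 and 5 hold 7 and 4 members.

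The class shares give how much of each marker class was cycling. Of 504 C1qa+ cells 41 were cycling, or 8.13% (5.90 to 10.9%). Of 516 Cd3e+ cells 35 were cycling, or 6.78% (4.77 to 9.31%), and the intervals of the 2 classes overlapped. T cells in which no Cd3e was read are not in this base. Another 426 leukocytes without a class marker carried T or NK genes without high class II genes, and 8 of them (1.88%) were cycling. The Cd3e+ share is therefore not the share of all T cells. The C1qa+ and Cd3e+ shares depend on the gate and were higher with at least 3 UMIs of Ptprc, as given in the closing section. Lyz2+C1qa- cells, which take in monocytes, cycled in 4 of 431 cells (0.928%), and Cd79a+ B cells in 1 of 94 (1.06%). None of the 494 cells of the S100a8+ class was cycling (0%, interval 0 to 0.744%). Of the cells without a class marker, 27 of 908 were cycling (2.97%). The S100a8+ cells were shallow, with a median of 1444 UMIs against 4590.5 in C1qa+ and 1933 in Cd3e+ leukocytes. At 1000 UMIs per cell, 5.36% of C1qa+ (3.56 to 7.70%), 8.14% of Cd3e+ (5.93 to 10.8%), 2.32% of Lyz2+C1qa- and 0.405% of S100a8+ cells held a UMI of Mki67 or Top2a. The order of the C1qa+ and Cd3e+ classes thus turned under this measure, which thins the cells and also asks for 1 UMI in place of 2. The intervals of these 2 classes overlapped here too, and both stayed above that of the S100a8+ cells.

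Genes of granulocyte precursors were nearly absent from the members. Mpo, Elane, Prtn3 and Ctsg, the primary granule proteases and peroxidase of promyelocytes, were at 0, as were Ms4a3, Camp, Ngp, Fcnb and Cebpe. The 11 genes of this list held 5 UMIs in all, 0.0500 per 10000 UMIs against 2.72 in non-cycling leukocytes. The 10 neutrophil genes stood at 3.41 per 10000 in members and 73.9 in non-cycling cells. Among mast cell, basophil and eosinophil genes only Prg2 was seen, with 2 UMIs in 1 cell.

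By library, C1qa+ cells cycled at 7.14% (12 of 168) in library 1, 10.8% (20 of 186) in library 2, 2.86% (2 of 70) in library 3 and 9.68% (6 of 62) in library 4. These 4 intervals overlapped. Cd3e+ cells cycled at 4.46% (10 of 224), 4.98% (10 of 201) and 2.13% (1 of 47) in libraries 1 to 3. In library 4 they cycled at 38.2% (13 of 34, interval 22.2 to 56.4%), which lay above the intervals of libraries 1, 2 and 3. Thinned, the Cd3e+ share of library 4 was 32.4% (17.4 to 50.5%), against 6.25% in library 1 and 6.97% in library 2. Without library 4 4.56% of the Cd3e+ cells were cycling. Of the cells with T or NK genes but no class marker, 1 of 44 was cycling in library 4. In libraries 1 to 3 it was 1 of 122, 4 of 126 and 1 of 125. Library 4 is 1 sample, and the spread between samples of a condition was not measured.

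**Figure D2:**
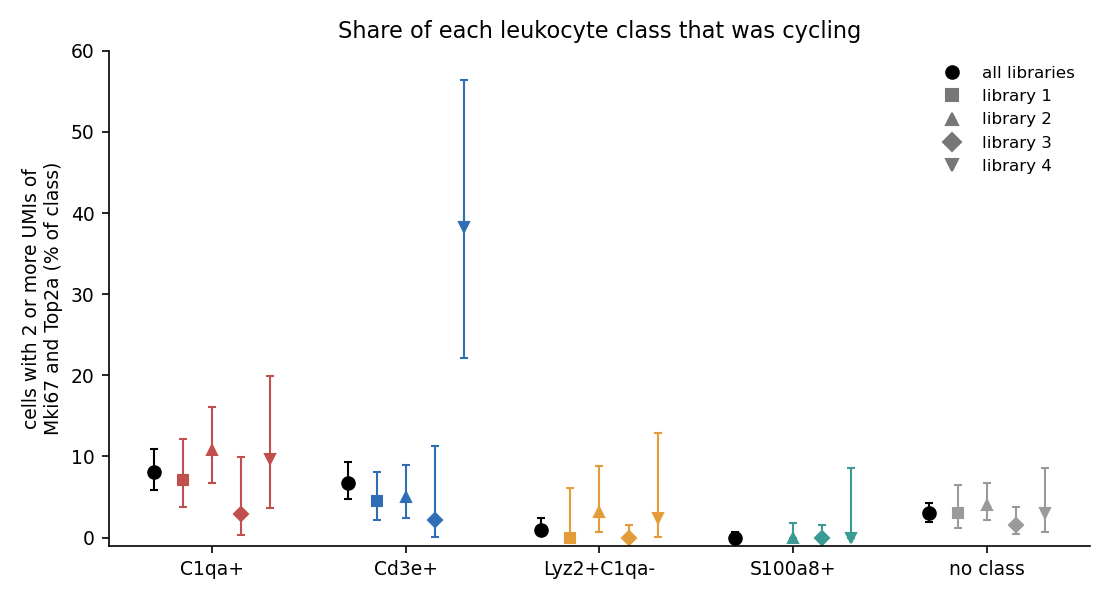
Points give the percentage of each leukocyte class with 2 or more UMIs of Mki67 and Top2a, over all libraries and for each library with at least 20 cells of the class. Bars are exact 95% binomial intervals. The Cd3e+ cells of library 4 stand at 38.2%, and the S100a8+ cells at 0%.

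The Cd3e+ members took in both main lineages of T cells. Of the 35, 16 carried Cd8a or Cd8b1 and 10 carried Cd4, with 9 in which neither was seen. Cycling made up 7.84% (4.55 to 12.4%) of Cd8 cells and 11.4% (5.59 to 19.9%) of Cd4 cells, intervals that overlap. After thinning the shares were 8.33% and 11.4%. In library 4 the 13 cycling cells held 6 Cd8 cells of 13 in that library, 3 Cd4 cells of 9 and 4 of 12 with neither. Nkg7, a granule gene of cytotoxic cells, was detected in 26 of 35 members and the chemokine gene Ccl5 in 27. Icos, a costimulatory receptor, was in 20, and Cxcr6, a receptor of tissue T cells, in 19. Gzmb was in 9 and Gzma in 6. The regulatory T cell factor Foxp3 was seen in 1 member and the γδ T cell gene Trdc and the NK gene Ncr1 in none.

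The C1qa+ members were macrophages by other genes too. All 41 held Csf1r, the receptor for macrophage colony-stimulating factor, and all held C1qb and C1qc. Adgre1 (F4/80) was in 30 and Cx3cr1 in 32. Ly6c2, a marker of classical monocytes, was in 1 with 1 UMI, and Timd4 was in none. Ccr2, the chemokine receptor of monocyte-derived cells, was in 23 (56.1%) against 35.9% of non-cycling C1qa+ cells, and Mrc1 in 46.3% against 45.8%. Median depths were 10934 and 4133.5 UMIs, and the part of depth in these shares was not tested. When the C1qa+ class was split by H2-Aa, an MHC class II chain, and Gpnmb, a glycoprotein of lysosome-rich macrophages, the members fell into separate groups. H2-Aa was at 20 UMIs or more with Gpnmb under 5 in 25 members, found in libraries 1 to 4. Gpnmb was at 5 or more with H2-Aa under 20 in 7 members, all in library 2. The other 9 met neither rule, and none met both.

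The 7 Gpnmb cells held 17, 5, 55, 69, 120, 65 and 177 UMIs of Gpnmb and 0, 0, 7, 7, 0, 1 and 0 of H2-Aa. They were deep, with a median of 22910 UMIs against 8723 in the H2-Aa members, and the 2 deepest held 42911 and 51643 UMIs with 6 and 2 UMIs of Mki67 and Top2a. Fabp5 and Trem2, both of lipid-handling macrophages, were detected in all 7. Spp1 (osteopontin) stood at 15976 CPM (UMIs of the gene per 1000000 UMIs of the cells) in them and 14880.4 in the 22 non-cycling cells of the same kind. The 2 deepest members held 89.5% of these Spp1 UMIs, and the other 5 stood at 3332 CPM. The members made up 7 of 32 such cells in all libraries (21.9%, interval 9.28 to 40.0%) and 7 of 20 in library 2. After thinning, 3 of the 32 held a UMI of Mki67 or Top2a (9.38%, interval 1.98 to 25%). Library 4 held 9 such cells, of which none was a member. Per 1000 UMIs their G2/M genes had a median of 2, against 6 in the H2-Aa members. Of the H2-Aa state, 25 of 323 cells were cycling (7.74%), and 4.95% after thinning.

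**Figure D3:**
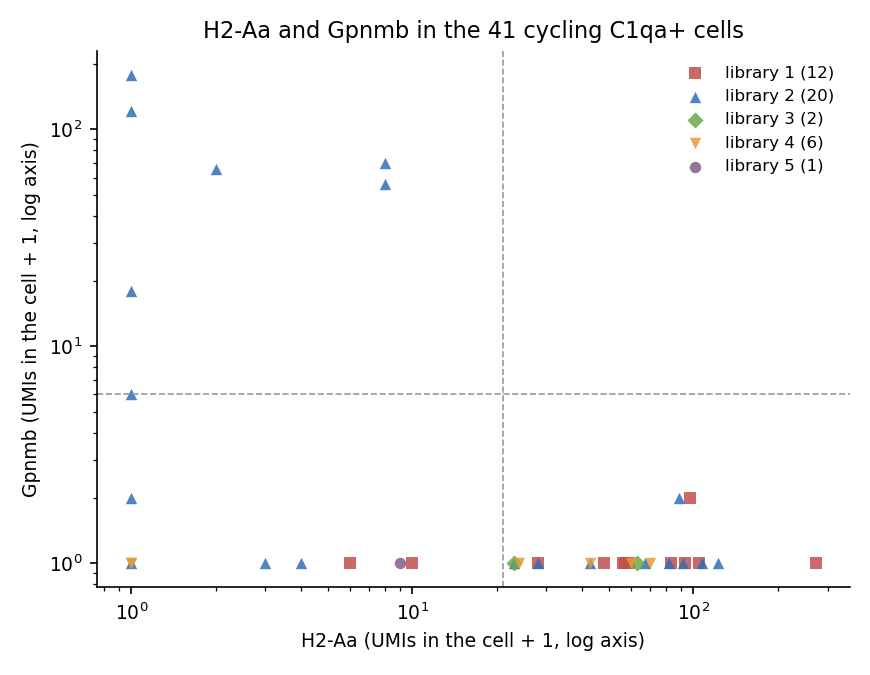
Each point is a cycling C1qa+ cell, placed by its UMIs of H2-Aa and Gpnmb plus 1 on log axes, with symbols for libraries and dashed lines at the thresholds of 20 and 5 UMIs. The 7 cells high in Gpnmb are all from library 2, and none of them passes the H2-Aa threshold.

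The 27 members without a class marker were looked at by other genes. In 13 of them class II genes (H2-Aa, H2-Ab1 and H2-Eb1) were high without T or NK genes, and 8 carried T or NK genes with no UMI of Cd3e. Another 2 carried both sets and 4 neither. Within the class II group, Cd209a, a lectin of monocyte-derived and type 2 dendritic cells, reached 5 to 16 UMIs in 6 cells. Irf8, a factor of type 1 dendritic cells, reached 10 to 15 in 3 others, of which 2 also held Clec9a, at 1 and 3 UMIs. Of other dendritic cell genes in these 3, Xcr1 was at 0, Zbtb46 held 1 UMI in 1 cell and Flt3 3 UMIs in another. Clec9a was also at 1 UMI in some of the Cd209a cells, so it does not set the Irf8 cells apart. Ccr7 of migrating dendritic cells stood at 10 and 11 UMIs in 2 cells. Cycling class II cells were 13 of 131 (9.92%, interval 5.39 to 16.4%), or 8.40% after thinning, with 4 in library 1, 7 in library 2 and 2 in library 3. Of the T or NK group, 7 held UMIs of Cd3d and Cd3g, and the eighth, in library 2, held 52 UMIs of Gzma, 11 of Gzmb and 2 of Ncr1 with none of either. One of the 4 remaining cells carried epithelial genes. It held 30 UMIs of Mki67 and Top2a and 1 of Ptprc, with 11 of Epcam, 11 of Cdh16, 7 of Krt18 and 566 of Spp1. The Cd79a+ member held 26 UMIs of Cd79a, 8 of Cd79b and 12 of Ms4a1 (CD20), and none of Ighm or Jchain. The 4 Lyz2+C1qa- members held 5, 101, 105 and 145 UMIs of H2-Aa.

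Transcripts of the cycle were then compared between members and non-cycling leukocytes, in CPM over the summed UMIs of each group (999508 and 8711213). The gate chose the cells by 2 genes of the cycle, so the higher levels of other cycle genes describe what came with that choice and are no independent finding. Genes with 50 UMIs or more over both groups were read, and a gene was called at a 2-fold difference. Of 10074 genes, 520 (5.16%) were higher and 1497 (14.9%) were lower in members. The lower genes came to 658 with at least 3 UMIs of Ptprc required, and to 693 without cells with 2 or more UMIs of other cell types. That setting counted Spp1, which macrophages also make. It covered 54 members, and 15 with Spp1 not counted. The limit of 50 UMIs was applied anew to the cells of each setting, so the number of genes read changed too. The counts of 658 and 693 are therefore not shares of the 10074 genes. Of the 34 S phase genes with enough UMIs, of 43 listed, 31 were called higher and none lower. Of 41 G2/M genes, of 51 listed without Mki67 and Top2a, 39 were higher and none lower. The median log2 ratio was 2.44 for the S list and 4.39 for the G2/M list, against -0.11 over all genes. Genes that passed only through the members had to differ, so these counts describe and do not support.

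The S phase genes with the highest ratios among those of 100 UMIs or more in members were Rrm2 and Rrm1, the subunits of ribonucleotide reductase, which makes deoxynucleotides. Of the G2/M genes they were Birc5, Cenpf of the kinetochore and Aurkb, the kinase partner of Birc5. The 250 bases before the transcription start of Rrm2, Rrm1, Birc5 and Cenpf are shown, since both gene groups are known to be driven through short promoter elements. The RefSeq promoters are on GRCm38.p6, in the direction of transcription, at chr12:24708004-24708253 (+), chr7:102441445-102441694 (+), chr11:117848987-117849236 (+) and chr1:189688087-189688336 (-). Capitals mark 3 motifs sought on both strands. The first is the CHR element of late cycle genes, searched with the letters TTTGAA and, as a known variant of it, with TTTAAA. The next is the CCAAT box, which late cycle genes often carry. The last is the E2F motif of genes that are switched on before S phase, searched as TTGGCGC, then with the common variant form TTCCCGC, further with the less common form TTCGCGC, and lastly with the remaining form TTGCCGC. The motifs do not overlap in these runs.
Rrm2: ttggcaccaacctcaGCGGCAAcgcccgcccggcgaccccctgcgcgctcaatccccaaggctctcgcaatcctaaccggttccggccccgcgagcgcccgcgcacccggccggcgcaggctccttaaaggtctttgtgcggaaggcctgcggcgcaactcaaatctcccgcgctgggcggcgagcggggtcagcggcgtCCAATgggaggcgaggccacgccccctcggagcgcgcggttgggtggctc
Rrm1: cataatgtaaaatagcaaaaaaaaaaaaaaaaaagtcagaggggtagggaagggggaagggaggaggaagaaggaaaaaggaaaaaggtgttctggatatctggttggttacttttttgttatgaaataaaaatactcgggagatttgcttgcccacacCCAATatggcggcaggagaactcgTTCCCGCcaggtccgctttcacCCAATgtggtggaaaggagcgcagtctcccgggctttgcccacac
Birc5: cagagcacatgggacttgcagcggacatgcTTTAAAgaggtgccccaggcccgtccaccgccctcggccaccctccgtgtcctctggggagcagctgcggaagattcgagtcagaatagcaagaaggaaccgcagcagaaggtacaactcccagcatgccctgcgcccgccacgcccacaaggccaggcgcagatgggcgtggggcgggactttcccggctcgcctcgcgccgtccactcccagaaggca
Cenpf: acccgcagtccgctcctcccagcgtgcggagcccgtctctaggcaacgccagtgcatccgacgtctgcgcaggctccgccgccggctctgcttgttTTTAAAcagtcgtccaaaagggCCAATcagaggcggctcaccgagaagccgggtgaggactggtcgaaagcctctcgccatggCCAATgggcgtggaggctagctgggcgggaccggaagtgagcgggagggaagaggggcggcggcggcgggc

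Rrm2 held an E2F motif 235 bases and a CCAAT box 50 bases before the start, the former on the opposite strand as GCGGCAA. Rrm1 held an E2F motif at 67 and CCAAT boxes at 91 and 45 bases. Birc5 held a CHR element at 220 bases, and Cenpf a CHR element at 154 with CCAAT boxes at 132 and 71. Over the S list, 31 promoters were matched, of which 51.6% held the E2F motif, 71.0% a CCAAT box and 19.4% a CHR element. Of 44 matched G2/M promoters, 15.9% held E2F, 75% CCAAT and 50% CHR. In the 27025 promoters of the table the shares were 7.97%, 34.5% and 25.5%. A match of these letters is a description of the sequence and not a bound site.

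The S phase list summed to 2875 CPM in members and 609 in non-cycling cells, a log2 ratio of 2.24 (2.17 to 2.30). Rrm2 held 142 UMIs in members and 33 in non-cycling cells (log2 5.23), and Rrm1 145 and 117 (3.43). By library, Rrm2 stood at 151, 125, 69.1, 179 and 368 CPM in members of libraries 1 to 5 and between 1.29 and 6.41 CPM in their non-cycling cells. The summed level of members was above that of non-cycling cells in each library, although single cells overlapped, since Rrm2 was seen in 55 of 109 members and 29 non-cycling cells. Clspn of the replication checkpoint was at a log2 ratio of 5.48 and Uhrf1, which maintains DNA methylation, at 3.78. The replication clamp Pcna was detected in 74 of 109 members (log2 1.84), and Mcm6 of the replication helicase in 43 (2.36). Of 16 nucleotide synthesis genes 10 were higher and none lower. The thymidine kinase Tk1 was at 4.23, thymidylate synthase Tyms and the dUTPase Dut both at 3.12, and the purine enzyme Paics at 0.82.

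The G2/M list summed to 7629.8 CPM in members against 1099.7, a log2 ratio of 2.79 (2.75 to 2.84). Birc5 stood at 505, 256, 230.3, 629 and 643 CPM in members of libraries 1 to 5, and at 5.85, 2.25, 4.61, 3.61 and 0 in non-cycling cells. The summed level of members in every library was above that of non-cycling cells in every library. Its log2 ratio was 6.61 (6.10 to 7.16). Cenpf was at 6.44, Aurkb at 6.35, the ubiquitin enzyme Ube2c of the anaphase-promoting complex at 6.33 and the spindle protein Nusap1 at 6.29. Hmmr, a receptor that binds the spindle, was at 7.66 from 93 and 4 UMIs. Lbr of the nuclear envelope (0.38) and the chromatin factor Ctcf (0.69) were the 2 tested genes that fell short of a 2-fold difference. Of 20 tested tubulin and spindle genes 19 were higher. Stmn1, which frees tubulin from microtubules, was at 1459, 921, 599, 1894 and 2068 CPM in members against 44.8 to 82.3 in non-cycling cells (log2 4.43). Tubb5 and Tuba1b, both tubulins, were at 2.90 and 2.80.

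Of 19 tested histone and chromatin genes 18 were higher. Hist1h1b, a linker histone of S phase, was at 6.94, the highest ratio among the cycle genes listed here with at least 100 UMIs in members, from 633 UMIs in members and 45 in non-cycling cells. It was uneven between libraries, at 136, 631, 23.0, 1832 and 1195 CPM, so that library 4 stood far above libraries 1 and 3. The variant histone H2afz, made also outside S phase, was at 1.71 and the chromatin protein Hmgb2 at 2.51. Replication-dependent histone transcripts mostly lack poly(A) tails, which the 3′ library captures, so their level reads only the captured part.

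The cyclins named here had different ratios, and a difference by the stage they act in was not tested. Ccna2 of S and G2 phase was at 6.22, Ccnb1 and Ccnb2 of mitosis at 5.46 and 4.81, and their kinase Cdk1 at 5.49. None of the D cyclins, which act before S phase, was called. Ccnd1 was at 0.23, Ccnd3 at -0.10 and Ccnd2 at -0.78. The inhibitor Cdkn1a (p21) was at 0.13, with 500 UMIs in 62 members, and Cdkn1b (p27) at -0.36, while Cdkn2c (p18) was at 1.30. Of 15 tested cyclin and kinase genes 8 were higher. Of 11 tested cycle transcription factors 6 were higher and none lower, with Myc at -0.13. Lists of growth genes had smaller ratios. Of 20 ribosome biogenesis genes 1 was higher, the nuclear transport GTPase Ran (1.5), and the list summed to a log2 ratio of 0.57 (0.53 to 0.61). Of 13 glycolysis genes none was higher and the lactate carrier Slc16a3 was lower (-1.27). The glycolysis sum stood at 0.56 and 0.72 in libraries 1 and 2 and at -0.29 and -0.36 in libraries 3 and 4.

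Among genes called lower, the leading ones belonged to cells that were rare among members. Retnlg (-8.95), S100a9 (-6.96), S100a8 (-6.80) and G0s2 (-5.32), all of neutrophils, were lower, as were 9 of 10 neutrophil markers and 8 of 10 monocyte markers. Non-cycling cells included 488 S100a8+ cells and members none, so class make-up moves with this comparison. Fxyd4 and Atp6v1g3 of the collecting duct were also lower, with 1 UMI each in members. When the non-cycling cells were weighted to the class shares of the members, 472 genes were higher and 1205 lower. With the mean over cells of per-cell CPM, 857 were higher, and higher genes made up 37.7% of those called against 25.8% with summed UMIs. Ccl1 (6.93) came from 1 member.

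Within the C1qa+ class, 41 cycling and 426 non-cycling cells were compared, which holds class constant. No class reached 50 cycling cells, so a lower limit of 30 was used, chosen after the data had been seen. Of 5612 genes 204 (3.64%) were higher and 278 (4.95%) lower, with a median log2 ratio of -0.01. With at least 3 UMIs of Ptprc the counts were 114 and 160.0, and with both Mki67 and Top2a required 420.0 were lower. Without cells with 2 or more UMIs of other cell types, Spp1 counted among them, 131 were higher. The number of genes read changed with the cells in these settings, so these counts are not shares of the 5612. Of 26 tested G2/M genes 23 were higher, of 16 S phase genes 12, and of 16 histone and chromatin genes 15, with none lower in any of these lists. Birc5 was at 6.05 (173 and 11 UMIs), Hist1h1b at 5.77, Ube2c at 5.46 and the replication factor Pclaf at 5.17. Stmn1 stood at 1237, 673, 787 and 1262 CPM in cycling cells of libraries 1 to 4 and at 69.6 to 102 in non-cycling ones. The G2/M sum was 2.68 (2.59 to 2.76), and the S sum 1.74 (1.63 to 1.86). Ribosome biogenesis stood at 0.25 and glycolysis at 0.55. The glycolysis sum was 0.54 and 0.74 in libraries 1 and 2 but -0.38, -0.33 and -0.64 in libraries 3, 4 and 5. The glucose importer Slc2a1 (1.13) was the called glycolysis gene, with UMIs in 11 of 41 cells.

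Summed over all 41 cycling C1qa+ cells, class II genes were lower than in non-cycling ones. H2-Aa stood at a log2 ratio of -1.08, H2-Ab1 at -1.10, H2-Eb1 at -1.21 and their chaperone Cd74 at -1.09. Without the 7 Gpnmb cells, the other 34 cycling cells were at -0.50, -0.52, -0.63 and -0.50 against all non-cycling C1qa+ cells, so that none of the 4 genes passed the 2-fold line. With cells of that state also left out of the non-cycling side (404 cells remaining), the ratios were -0.72, -0.73, -0.84 and -0.71. H2-Aa was at 4915 and 2051 CPM in cycling cells of libraries 1 and 2 against 10579.8 and 6626 in non-cycling ones. In libraries 3 and 4 the order was the opposite, with 5512 and 4509 CPM in 2 and 6 cycling cells against 1527 and 1956. Library 5, with 1 cycling cell, had 4128 CPM against 13714. The order of H2-Aa thus differed between libraries. Apoe, the lipid carrier of macrophages, was at -1.04 and was lower in cycling cells of all 5 libraries. With the Gpnmb state left out on both sides it was at -0.90, under the 2-fold line. Of the 14 macrophage markers only Apoe was called, and Csf1r was at -0.17, Adgre1 at -0.18 and Cx3cr1 at 0.02. The chemokine gene Cxcl9 held 1 UMI in cycling and 141 in non-cycling cells, the latter in 16 cells. Ifit3 and Rsad2 of the antiviral response were at -3.12 and -2.93, and the chemokine gene Ccl8 at -4.33. Retnla had no UMI in cycling cells and 299 in 10 non-cycling ones. Klk1, Umod and Krt8 of the tubule were lower too (-4.64, -3.69 and -2.64). Of 7 tested proximal tubule markers 5 were lower, and of 9 markers of other tubule segments 5 were lower and 1, Slc12a3, higher (1.82). The part of tubule RNA in this comparison was not tested.

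Of the repair-type macrophage genes, Arg1 and Gpnmb were carried by few cells. Arg1 (arginase) held 386 UMIs in 7 of 41 cycling cells, of which 93.3% were in 2 cells, and Gpnmb 511 UMIs in 10 cells. Their log2 ratios were 2.93 and 1.07. Arg1 and Gpnmb were the 2 genes called higher among the 12 of the list, and neither call held without the 2 cycling cells highest in that gene. Arg1 then stood at 55.0 CPM (95% interval for counting error 35.9 to 80.6) against 89.4 in all non-cycling cells. Gpnmb then stood at 437 CPM against 428. No cells were left out on the non-cycling side. There, 1 cell of library 1 held 321 UMIs of Gpnmb and 1 held 38 of Arg1. The 2 sides are thus not like for like, and these levels give no direction. The list summed to 0.47 over all libraries but to -0.42 without library 2, and to -0.30 when both Mki67 and Top2a were required. Gpnmb stood at 5.45, 1575, 0, 0 and 0 CPM in cycling cells of libraries 1 to 5 and at 420.4, 383, 30.7, 1028 and 0 in non-cycling ones, so that only library 2 was higher in cycling cells.

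Clec4e (Mincle), the C-type lectin receptor that the study is about, held 53 UMIs in cycling C1qa+ cells. That is 93.4 CPM (70.0 to 122) in 12 of 41 cells, against 71.5 CPM (61.2 to 83.0) in 79 of 426 non-cycling cells. The intervals overlapped, and 54.7% of the UMIs lay in 2 cells, without which the level was 47.9 CPM. The level of cycling cells was also lower without cells with 2 or more UMIs of other cell types, as given in the closing section. Non-cycling cells were not read under that setting. By library the cycling cells were at 114, 95.8, 0, 23.4 and 0 CPM and the non-cycling cells at 27.2, 72.8, 171, 103 and 0. Cycling cells were higher in libraries 1 and 2 and lower in libraries 3 and 4. Per 1000 UMIs Clec4e was seen in 9.76% of cycling and 5.63% of non-cycling C1qa+ cells, and in 0.605% of the deeper Lrp2-rich cells without thinning. The H2-Aa members held it in 3 of 25 cells at 12.1 CPM and the Gpnmb members in 4 of 7 at 94.3. Most of the UMIs lay in C1qa+ members that met neither rule. Where it was seen, these cells held 18, 5, 4, 4 and 1 UMIs. Over all members it stood at 64.0 CPM against 234 in non-cycling leukocytes, and no Cd3e+ member held a UMI. Non-cycling leukocytes included 488 S100a8+ cells and members none, so class make-up moves with these 2 levels, and its part was not tested.

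Tnf, the inflammatory cytokine, stood at 398 CPM (348 to 454) in cycling C1qa+ cells and 187 (170 to 205) in non-cycling ones. It was at 518, 371, 394, 117 and 0 CPM by library against 292, 162, 123, 36.7 and 121. Cycling cells were higher in libraries 1 to 4, while library 5 had 1 cycling cell. In 2 cells lay 43.8% of the UMIs, and without them the level was 245 CPM (205 to 292). Without cells with 2 or more UMIs of other cell types the level of cycling cells was higher, as given in the closing section. Non-cycling cells were not read under that setting. Per 1000 UMIs the share of cells with Tnf was 17.1% in cycling and 17.6% in non-cycling cells. Il1b was at 1888 CPM in cycling and 3276 in non-cycling C1qa+ cells (-0.79). Clec4d, which pairs with Clec4e, was at 1.37, with 57.2% of its 180 UMIs in 2 cells. Of the 10 genes listed around Clec4e, 9 could be tested here. Clec4d and Tnf were called higher and Ccl2 lower (-1.02). Without the 2 cycling cells highest in each gene, Tnf and Clec4d no longer passed the 2-fold line, with Clec4d at 154 CPM (122 to 193) against 122 in non-cycling cells. Here and for Clec4e, cells were left out on the cycling side only, so the 2 sides are not like for like. The direction of Clec4d and Ccl2 was not the same in all libraries. Clec4d was higher in cycling cells of libraries 1 and 2 and at 0 in those of libraries 3 and 4, against 188 and 93.5 CPM. Ccl2 was at 311 and 327 CPM in cycling cells of libraries 1 and 2 against 248 and 429, and at 0 and 304 in libraries 3 and 4 against 1913 and 1138.

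Within the Cd3e+ class, 35 cycling and 444 non-cycling T cells were compared. Of 3014 genes 289 (9.59%) were higher and 375 (12.4%) lower, with a median log2 ratio of 0.01. These counts moved with the cells used, to 157 and 214 without library 2, to 204 lower without library 1, and to 181 and 150 with at least 3 UMIs of Ptprc. The number of genes read changed with the cells too, so these counts are not shares of the 3014. Of 20 tested G2/M genes 18 were higher, of 15 S phase genes 14, of 16 histone and chromatin genes 15, and of 9 tubulin and spindle genes all 9. Ube2c held 178 UMIs in cycling and 3 in non-cycling cells, a log2 ratio of 8.26 (6.69 to 10.6). Hist1h1b was at 8.08, the core histone Hist1h2ap at 7.59, Birc5 at 6.96 and Cks1b, a subunit of cyclin-dependent kinases, at 5.25. Stmn1 stood at 2172, 1522, 1673, 2054 and 1811 CPM in cycling cells and at 48.3 to 127 in non-cycling cells, so that the summed levels did not overlap.

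The levels of some cycle genes differed between the libraries' cycling T cells, which was not tested. Hist1h1b was at 66.5 CPM in library 1, 1254 in library 2 and 2538 in library 4. Ube2c was highest in library 1, at 2415 CPM, with 128 in library 2 and 863 in library 4. After thinning, the 10 cycling T cells of library 1 had medians of 25 G2/M and 0.5 S UMIs, the 10 of library 2 of 8 and 6, and the 13 of library 4 of 13 and 4. In non-cycling T cells of the same libraries both medians were between 0.5 and 2. Libraries 3 and 5 gave 1 cycling T cell each.

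Of 17 tested ribosome biogenesis genes 6 were higher, among them Ran (2.07), the translation factor Eif5a (1.09) and Nme1 (1.21). The list summed to 0.98 (0.90 to 1.06) over all libraries, and to 0.39 in library 1, 1.51 in library 2 and 0.48 in library 4. In library 2, 1 cell of 27071 UMIs held 56.6% of the list's UMIs, and without it the sum was 0.92. Glycolysis genes summed to 0.70, with Gapdh (1.02) and Pgam1 (1.51) called. By library the glycolysis sum was 0.82 in library 1, 1.08 in library 2, -0.35 in library 3, -0.0048 in library 4 and 0.68 in library 5, where libraries 3 and 5 held 1 cycling cell each. Of 16 T and NK markers none was higher, and only Klrd1, an NK receptor chain, was lower (-1.80). Trac was at 0.14, Cd8b1 at 0.55 and Nkg7 at -0.24. Il7r, the receptor for the survival cytokine IL-7, was at -1.97 (named after its value was seen), at 44.3, 76.7 and 207 CPM in cycling cells of libraries 1, 2 and 4 against 479, 324 and 443. Bcl2, which blocks cell death, was at -2.49 and was seen in 6 of 35 cells. Ikzf2 (Helios) was at -3.44, with 5 UMIs in 2 cycling cells. Il7r, Bcl2 and Ikzf2 were lower in cycling cells of each of the 3 libraries with at least 10 such cells. Clu (-5.01) and Atp1b1 (-2.86), both also of tubule cells, were lower as well. Tubule markers did not all go that way. Of 7 tested proximal tubule markers 1, Fxyd2, was lower (-1.36), and 3 had a ratio above 0. Per 1000 UMIs, the median of the proximal tubule list was 3.21 in cycling against 1.64 in non-cycling T cells of library 1 and 13.2 against 10 in library 3, and it was lower in cycling cells of libraries 2, 4 and 5. The 5 tested markers of other tubule segments were all lower. The part of tubule RNA in these values was not tested.

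**Figure D4:**
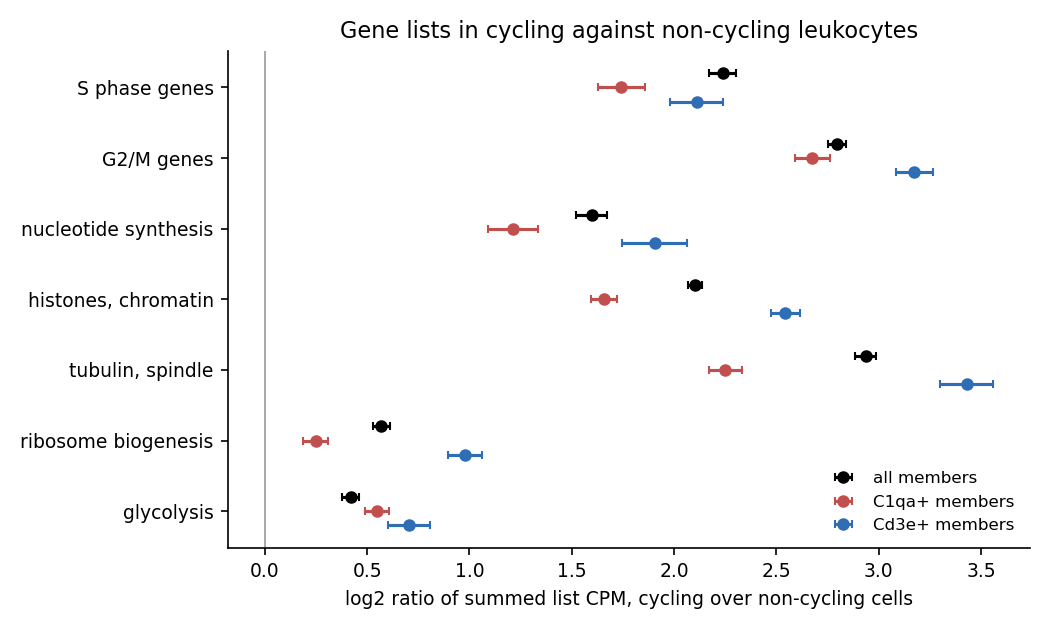
Points give the log2 ratio of the summed CPM of 7 gene lists in cycling over non-cycling cells, for all members, C1qa+ members and Cd3e+ members, with exact 95% counting intervals. All sums lie above 0, from 0.25 for ribosome biogenesis in C1qa+ cells to 3.43 for tubulin and spindle genes in Cd3e+ cells.

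Cycling C1qa+ and cycling Cd3e+ cells were set against each other. Of 2065 genes 449 (21.7%) were higher in C1qa+ cells and 352 (17.0%) in Cd3e+ cells, with a median of -0.25. Cycle genes were lower per UMI in the macrophage-type cells. Of 29 tested G2/M genes 21 were lower and none higher, of 13 S phase genes 7 were lower, and of 15 histone and chromatin genes 12. Birc5 was at -1.0, Ube2c at -2.04, Hmgb2 at -2.51 and Hist1h1b at -2.16. Birc5 and Hmgb2 were lower in C1qa+ cells of both libraries with 10 cells of each class. Ube2c was at -2.96 in library 1 but 0.18 in library 2, and Hist1h1b at 1.25 in library 1 but -1.65 in library 2. The sums were -1.55 (-1.62 to -1.47) for G2/M and -1.21 (-1.34 to -1.08) for S phase. C1qa+ members held more UMIs per cell (median 10934 against 4746), and the part of total RNA in these ratios was not tested. Cdkn1a was higher in C1qa+ cells, at 693 CPM against 91.5 (log2 2.92), as was Ccnd1, with 56 UMIs against 1 (log2 4.28, interval 1.74 to 9.61). Glycolysis sums differed by 0.15.

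Per cell, members held a median of 2 S and 8 G2/M UMIs of 1000 (means 3.18 and 10.1), non-cycling leukocytes 0 and 1. G2/M exceeded S in 79 of 109 members, S exceeded G2/M in 17, and they were equal in 13, of which 5 had neither. The G2/M list is longer and holds abundant genes such as Hmgb2, so the balance sets no phase. C1qa+ members had medians of 1 and 5, Cd3e+ members of 4 and 12, and members with no class of 2 and 7. By library the G2/M medians were 10, 5, 2, 10 and 14 and the S medians 1, 2, 2, 3 and 4.5.

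**Figure D5:**
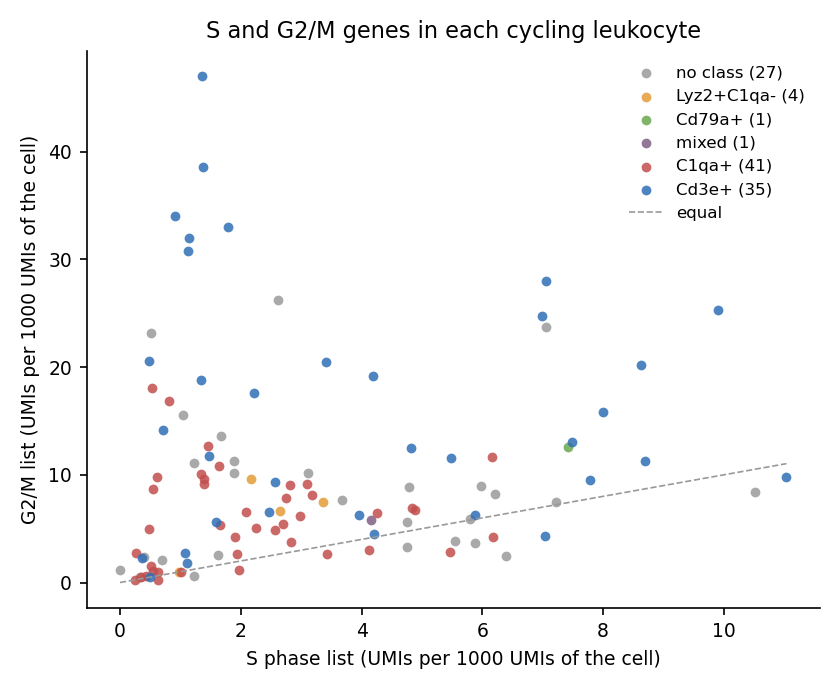
Each point is a cycling leukocyte, placed by its S phase UMIs and its G2/M UMIs per 1000 of its own UMIs without thinning, coloured by class, with the line of equal values. Cd3e+ cells reach the highest G2/M values, and a group of cells near the origin carries little of either list.

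Members were also compared with 652 cycling tubule cells of the same tissue (Lrp2 at least 1, no Ptprc, the same cycle gate). The same rule on Mki67 and Top2a chose both groups. Similar levels of other cycle genes came in part with that choice and are no independent finding. The tubule cells came mostly from libraries 3 and 4, with 422 and 153 cells, and the leukocytes from libraries 1 and 2, so library moves with cell type. Of 9962 genes 1216 (12.2%) were higher and 3279 (32.9%) lower in leukocytes, with a median of -0.43. Of 43 S phase genes 1 was higher and 3 lower, and of 50 G2/M genes 7 were higher and 8 lower, with sums of -0.20 (-0.26 to -0.15) and 0.28 (0.24 to 0.31). Birc5 was at 381 CPM in leukocytes and 257 in tubule cells, and Pcna at 304 and 297. Single genes did differ. Hist1h1b was at 5.58, with UMIs in 59 of 109 leukocytes and 18 of 652 tubule cells. Ccnd2 was at 3.00, Cdkn1a at 1.47 and the factor Mybl2 at 2.04. Ccne2, a cyclin of S phase entry, was at -2.74 and the mitotic motility receptor Hmmr at -1.23. After thinning, cycling tubule cells had medians of 3 S and 5 G2/M UMIs.

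RNA of other cells was measured in the members. All 12 proximal tubule genes had UMIs, at 18.7 per 10000 UMIs against 44.9 in non-cycling leukocytes, and Slc34a1 was at 0 in 56 members. Of 15 other tubule genes, Slc12a1, Aqp2, Slc4a1 and Havcr1 were at 0, and the list stood at 52.7 against 64.3, mostly through Spp1, which macrophages also make. In library 3 all 838 non-cycling leukocytes held Spp1, at 9557 CPM in sum. The part of background RNA in Spp1 was not tested. Of 8 endothelial genes Kdr, Flt1, Cdh5 and Tie1 were at 0 (0.190 against 1.46). Of 5 podocyte genes Podxl was at 0 (0.0500 against 0.359). The 8 stromal genes were higher in members at 2.72 against 1.12, with Col1a1 at 50 UMIs in 3 cells, 78.0% of them in 1. Not counting Spp1, 15 members held 2 or more UMIs of the other tubule, endothelial, stromal and podocyte lists. Scrublet marked 8 members and 124 non-cycling cells as likely doublets. In these members the part of mixed droplets was not tested. In summed levels as given here, fewer cells with a transcript and less transcript per cell cannot be told apart.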

How the data were processed

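Kidney cell suspensions were sequenced with 10x Genomics 3′ v3.1 chemistry. Per the labels and file headers, the authors aligned reads to mm10 with Cell Ranger 6.0 (6.0.1 in the matrix header) and deposited 1 merged matrix of raw UMI counts, 32285 genes by 10474594 barcodes, with 5 library numbers. Cell types were not annotated in it. Counts were read with Python 3.11.15, numpy 2.4.6, scipy 1.17.1 and pandas 2.3.3. The members, gene lists and thresholds were chosen with earlier results of these data known. The 5 leukocyte and 5 cycle genes of the label check, the sub-class rules (at least 20 UMIs of class II genes, 3 of T or NK genes, 5 of Gpnmb, 20 of H2-Aa) and the limit of 30 cells within classes were chosen after values were seen. Ratios are of UMIs summed over cells, for genes with at least 50 UMIs, called at a log2 ratio of 1. Named genes were the listed genes, plus the 15 highest and 10 lowest ratios among genes with at least 100 UMIs and the same sign in each library with at least 20 cells per group (10 within classes). Others were named after their values were seen. A level of 0 was set to a floor of 3 UMIs. Thinning drew 1000 UMIs per cell. Thinned shares of sub-classes and levels without the deepest cells were added after the data were seen. Doublets were marked with Scrublet in scanpy 1.11.5 at 0.8% per 1000 cells and kept. Its own threshold marked 0.0114 to 2.91% per library, under 0.5% in 4 of 5 libraries, and was not used. Intervals (95%) are exact binomial or Poisson. With 1 sample per condition there were no tests. The interval code was checked on simulated counts.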

Additional observations from a re-analysis of the deposited data

How the results depend on the processing

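No paired analysis was possible because the values come from no test, with 1 sample a condition. Of 710 values recomputed over 22 settings, 474 stayed within their interval or 1.5 times the count, 233 moved and 3 reversed. The causes were not tested. Requiring both Mki67 and Top2a gave 2.64% cycling, 5.75% of C1qa+ cells, 420.0 C1qa+ genes lower and a repair list ratio of -0.304. At least 3 UMIs of Mki67 and Top2a together gave 2.87%. Ptprc of at least 3 gave 6.19% cycling, 13.4% of C1qa+, 10.2% of Cd3e+, 658 genes lower, 114 higher and 160.0 lower in C1qa+, 181 and 150 in Cd3e+, and Tnf at 503 CPM. At least 2000 UMIs gave 6.33%, 13.4% of Cd3e+ and 233 Cd3e+ genes lower. Without cells with 2 or more UMIs of other cell types, Spp1 counted among them, 25.5% of members were C1qa+, 5.81% of C1qa+ cycled, 693 genes were lower, 131 C1qa+ genes higher, Clec4e was at 45.4 and Tnf at 626 CPM. With Spp1 not counted, a setting added after the data were seen, 855 were lower. Doubled class thresholds gave 21.1% Cd3e+ members, thinning 5.36% of C1qa+, per-cell CPM 857 genes higher, and 200 UMIs per gene 170.0 higher and 487 lower. Leaving out 1 library gave 3.22 (library 4) to 4.92% (library 3) cycling, 4.56 (4) to 8.56% (1) of Cd3e+, 157 (2) to 286 (3) Cd3e+ genes higher and 204 (1) to 407 (4) lower. It gave Tnf 341 to 435 CPM, a C1qa+ repair list ratio of -0.424 (2) to 0.627 (4), and a Cd3e+ T and NK list ratio of -0.394 (4) to 0.0709 (2). Small numbers of cycling cells limit libraries 3 and 5.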
